A study of Saccharomyces cerevisiae with 59 samples.

Results

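The comparison was made between 2 sets of yeast RNA libraries that were built from the same amount of RNA, 100 pg, and that differ in the number in their title. Libraries 1 to 4 (n = 4) were compared with libraries 5, 7 and 10 (n = 3), which makes 7 of the 59 libraries in the series. All 7 were made from RNA from budding yeast (Saccharomyces cerevisiae, strain S288C) kept as spheroplasts, cells whose wall had been digested, in amino acid starvation (AAS, a medium without amino acids). The RNA was purified in bulk, diluted, and turned into libraries by the procedure used for single cells, with the same dilution of ERCC spike-in RNA (synthetic transcripts of known sequence) in every 100 pg reaction. The strain was expanded from a single clone. The labels give a range of starvation times and not the time of a library, and they do not say what the library number marks, whether a batch, a day or only an order. Separate cultures are not stated. A p-value here therefore measures how far single libraries scatter, and that scatter may be technical.

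In this procedure oligo-dT primes the poly(A) tail of an mRNA, a tail is added to the cDNA before PCR, and the reads are counted without molecular identifiers, so copies of 1 molecule are counted again. The most abundant mRNAs of budding yeast in glucose encode the enzymes of glycolysis and of ethanol formation. The glyceraldehyde-3-phosphate dehydrogenases (TDH1, TDH2, TDH3), the enolases (ENO1, ENO2), phosphoglycerate mutase (GPM1), aldolase (FBA1), pyruvate kinase (CDC19), pyruvate decarboxylase (PDC1) and alcohol dehydrogenase (ADH1) carry glucose carbon to ethanol. Without amino acids the cell also relies on its synthesis pathways, among them those for sulfur amino acids (MET17, SAM1, SAM2).

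Libraries 1 to 4 held 811385, 742481, 825280 and 1007717 counts in genes, against 2000395, 1851989 and 1441786 in libraries 5, 7 and 10. The spike-ins took 60.0% to 70.8% of gene plus spike-in counts in libraries 1 to 4 and 46.7% to 51.9% in libraries 5, 7 and 10, so for each spike-in count there were 0.413 to 0.667 gene counts in libraries 1 to 4 and 0.927 to 1.14 in libraries 5, 7 and 10. With at least 5 counts, 2496, 2362, 2333 and 2511 genes were detected in libraries 1 to 4, against 3037, 4714 and 4526 in libraries 5, 7 and 10. The sets did not overlap, and they also did not after each library was thinned to 742481 counts, where the mean was 2323 ± 88.9 genes in libraries 1 to 4 and 3680 ± 874 in libraries 5, 7 and 10 (SD, n = 4 and 3). Counted from 1 count on, the difference of means was -809 genes in place of -1667. An exact permutation test of 4 against 3 libraries cannot go below a two-sided p of 0.0571, and the number of detected genes, the spike-in share, the glycolytic share and the GC content below all gave that smallest value (0.0857 after adjustment over 6 measures).

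Library 5 stood apart. Its Spearman correlation with each of the other 6 libraries, across genes, was 0.546 to 0.605, while libraries 7 and 10 correlated at 0.768 and libraries 1 to 4 at 0.756 to 0.786 among themselves. The biological coefficient of variation was 0.719 in libraries 1 to 4, 1.16 in libraries 5, 7 and 10, and 0.646 in libraries 7 and 10 alone. Results that rest on library 5 are therefore also given without it. As a check of the strain, which is of mating type alpha, the 4 mating type alpha genes took 0.110% to 0.217% of the counts in libraries 1 to 4 and 0.233% to 0.291% in libraries 5, 7 and 10, whereas the 7 mating type a genes together had at most 0.00243% in any library.

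Which transcripts separated the sets depended on the scale, because the sets differed across most of the transcriptome. Of 4542 genes tested in edgeR by quasi-likelihood after TMM scaling, which equalises a trimmed mean of genes, 78 (1.72%) were called higher and 19 (0.418%) lower in libraries 1 to 4 at an adjusted p of 0.05. The median gene lay at a log2 fold change of -0.75 on that scale. Scaled to the gene total, as CPM (a gene's count scaled to a common gene total) are, the median gene lay at -2.28 and 12 genes (0.264%) were called higher and 929 (20.5%) lower. Scaled to the spike-in total, the median gene lay at -3.15, no gene was called higher and 2540 (55.9%) were called lower. On that scale 2971 genes, counted in both directions, had an unadjusted p under 0.05. The 19 genes lower after TMM were called lower on the other 2 scales as well. Both of those scales moved the median gene further down, so this is no separate support for the 19. Of the 78 genes called higher, 12 were called higher on gene totals. Without library 5, 4389 genes were tested. The calls were 243 higher (5.54%) and 76 lower (1.73%) after TMM, and 31 higher and 2388 lower on gene totals, where the median gene lay at -2.35. After DESeq2 size factors edgeR called 80 higher (1.76%) and 19 lower, DESeq2 itself called 208 (4.58%) and 197 (4.34%), and limma-voom called 70 (1.54%) and 1 (0.022%). With the number of detected genes as a covariate edgeR called 381 higher and 462 lower of 4542. The median gene then lay at 0.97, and 44 of the 78 were among those called higher. Because the number of detected genes does not overlap between the sets, this fit cannot tell it apart from the set. When all 54 libraries shared the spread edgeR called none (164 at an unadjusted p under 0.05). CPM in each library are given first below, and a log2 fold change is that of the TMM fit unless another scale is named.

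Glycolysis and ethanol formation made up most of the gene counts in libraries 1 to 4. The 27 genes of this list took 53.1%, 56.5%, 55.9% and 58.5% of the counts in libraries 1 to 4, against 26.4%, 31.2% and 29.0% in libraries 5, 7 and 10. The difference of means was 27.2 percentage points and lay between 25.9 and 28.3 when each library was left out in turn. Of the 27 members, 11 were called higher and none lower after TMM, beside 1.72% and 0.418% of all genes. On gene totals 8 were called higher and 2 lower, beside 0.264% and 20.5% of all genes. The median log2 fold change of the list was 2.19 above that of all genes tested.

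TDH3, the main glyceraldehyde-3-phosphate dehydrogenase gene, had 129890, 130250, 143870 and 140160 CPM in libraries 1 to 4, against 49566, 67312 and 69356 CPM in libraries 5, 7 and 10. ENO2, the enolase of fermenting cells, had 79590, 95531, 83386 and 95570 CPM in libraries 1 to 4, against 38964, 38351 and 31626 CPM in libraries 5, 7 and 10. Every one of libraries 1 to 4 was above every one of libraries 5, 7 and 10 for both genes. The log2 fold change was 2.64 ± 0.15 (SE) for TDH3 (adjusted p = 6.6e-09) and 2.73 ± 0.21 for ENO2 (adjusted p = 3.5e-07) in the edgeR fit. The same held for TDH1, TDH2 and ENO1, with fold changes of mean CPM of 2.22, 2.21 and 2.03. Per spike-in count TDH3 and ENO2 were at nearly the same level in both sets (log2 fold changes of 0.23 and 0.37, adjusted p = 0.205 and 0.115), on a scale on which the median gene was lower by 3.15. The 3 TDH genes are close copies of each other, as are the 2 ENO genes, and reads that map to more than 1 copy were not counted, so the division of counts among copies is uncertain.

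**Figure D1:**
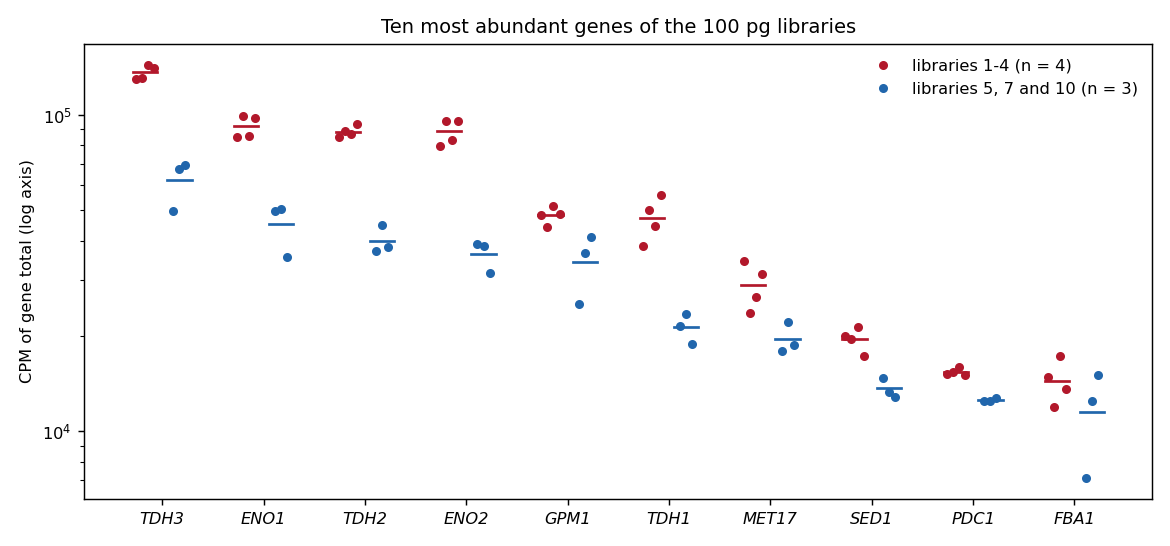
CPM (gene counts scaled to the gene total, log axis) of the 10 most abundant genes of the 7 libraries at 100 pg, each point being 1 library and each bar the mean of a set. Libraries 1 to 4 all lie above libraries 5, 7 and 10 for each gene except FBA1, for which the sets overlap.

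The rest of the top group moved less. PDC1 had 15215, 15401, 15933 and 15006 CPM in libraries 1 to 4, against 12454, 12492 and 12704 CPM in libraries 5, 7 and 10, a small gap with a narrow spread within each set that was not called on gene totals (adjusted p = 0.105, edgeR). MET17, which makes homocysteine from sulfide, had 23712 to 34498 CPM in libraries 1 to 4 and 17875 to 22097 CPM in libraries 5, 7 and 10. SED1, a structural protein of the cell wall, had 17315 to 21408 CPM in libraries 1 to 4 and 12872 to 14732 CPM in libraries 5, 7 and 10. For PDC1, SED1 and MET17 the direction turned on the spike-in scale, where the log2 fold changes were -0.62, -0.41 and -0.37. Actin (ACT1) shows how the scale decides a call: it was called higher after TMM (1.34 ± 0.27 SE, adjusted p = 0.0143), while its CPM averaged 2961 ± 329 in libraries 1 to 4 and 3315 ± 549 in libraries 5, 7 and 10 (SD, n = 4 and 3).

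Beyond single genes, the sets were separated by how abundant a transcript was. Genes were put into classes by their mean CPM in the 10 ng libraries, which took no part in the 100 pg comparison, and with no filter at 100 pg. The 13 genes over 10000 CPM took 57.9%, 60.2%, 60.7% and 63.6% of the counts in libraries 1 to 4, against 28.8%, 34.2% and 32.1% in libraries 5, 7 and 10. The 120 genes between 1000 and 10000 CPM took 19.2% ± 0.544 in libraries 1 to 4 and 22.4% ± 1.62 in libraries 5, 7 and 10 (SD, n = 4 and 3). Genes of 1 to 10 CPM took 1.67% ± 0.404 in libraries 1 to 4 and 6.34% ± 1.16 in libraries 5, 7 and 10. Genes of at most 10 CPM together differed by -5.33 percentage points (libraries 1 to 4 minus libraries 5, 7 and 10), and by -2.62 points when the class was set by the level at 1 ng. Each class below 10000 CPM was lower, and the class above it higher, in every one of libraries 1 to 4.

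Against the spike-ins the same gradient appeared from the other side. The most abundant class had 0.324 ± 0.0664 gene counts per spike-in count in libraries 1 to 4 and 0.318 ± 0.0176 in libraries 5, 7 and 10 (SD, n = 4 and 3). The next class, 1000 to 10000 CPM, was 2.20-fold lower in libraries 1 to 4, and the classes of 100 to 1000, 10 to 100 and 1 to 10 CPM were 3.48-fold, 5.29-fold and 7.37-fold lower. Genes of at most 1 CPM were 7.88-fold lower. The class means are sums over many genes, and the gene-wise values within a class varied: 188 of the 2075 genes with counts in the class of 1 to 10 CPM had a higher mean CPM in libraries 1 to 4.

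**Figure D2:**
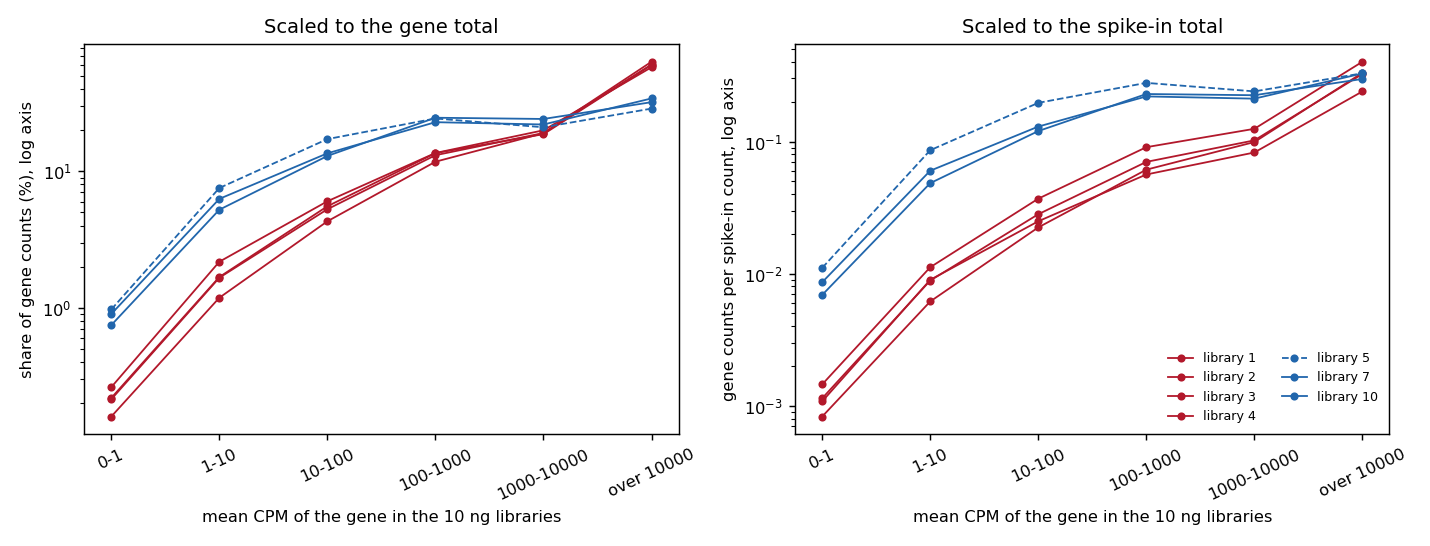
Share of gene counts (left, in %, log axis) and gene counts per spike-in count (right, log axis) for genes in 6 classes of mean CPM in the 10 ng libraries, 1 line for each 100 pg library, with library 5 dashed. On the left the lines cross before the highest class, and on the right libraries 1 to 4 lie below the others in all classes except the highest.

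The base composition of a gene separated the sets as well, also among genes of similar abundance. The GC content of the coding sequence, averaged with the counts as weights, was 45.4% ± 0.0902 in libraries 1 to 4 and 43.6% ± 0.266 in libraries 5, 7 and 10 (SD, n = 4 and 3). Outside the glycolysis list the difference of 1.79 percentage points became 1.38. Among genes of at most 10 CPM at 10 ng, those with at most 38% GC (1112 genes) had summed CPM of 2497, 2322, 2141 and 2436 in libraries 1 to 4, against 21733, 22565 and 13412 in libraries 5, 7 and 10. They were 8.19-fold lower in libraries 1 to 4, and 7.66-fold lower when library 5 was left out. Those with over 46% GC (184 genes) had 5880, 3751, 6017 and 2927 in libraries 1 to 4, against 4209, 3609 and 4121 in libraries 5, 7 and 10, and these ranges overlapped. Of all counts in genes of at most 10 CPM, the genes over 44% GC took 37.5%, 31.3%, 40.8% and 29.5% in libraries 1 to 4 and 8.25%, 9.55% and 12.8% in libraries 5, 7 and 10. The limits of these classes were chosen after the data were seen, so no test is given for them.

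In the more abundant classes too, genes over 46% GC had the highest ratios, while the order below that was not regular. Between 10 and 100 CPM the log2 ratio of the summed shares, libraries 1 to 4 over libraries 5, 7 and 10, was -2.04 at up to 38% GC, -2.25 at 38 to 40% and 0.09 over 46%. Between 100 and 1000 CPM it was -1.05 at up to 38% GC, -1.42 at 40 to 42% and 0.09 over 46%. Among genes over 1000 CPM only classes of at least 20 genes were used, and the ratio was -0.07 at 40 to 42%, -0.49 at 42 to 44%, 0.19 at 44 to 46% and 0.99 over 46% GC. Across the 4482 tested genes that had a coding GC content and a level at 10 ng, Spearman's rho with the log2 fold change was 0.399 for GC content, 0.339 for the level at 10 ng and -0.124 for coding length. These are descriptions across genes of the same 7 libraries, and genes are not independent replicates. Depth, the number of detected genes and the spike-in share differed between the sets along with GC content, and their part in the GC difference was not tested.

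**Figure D3:**
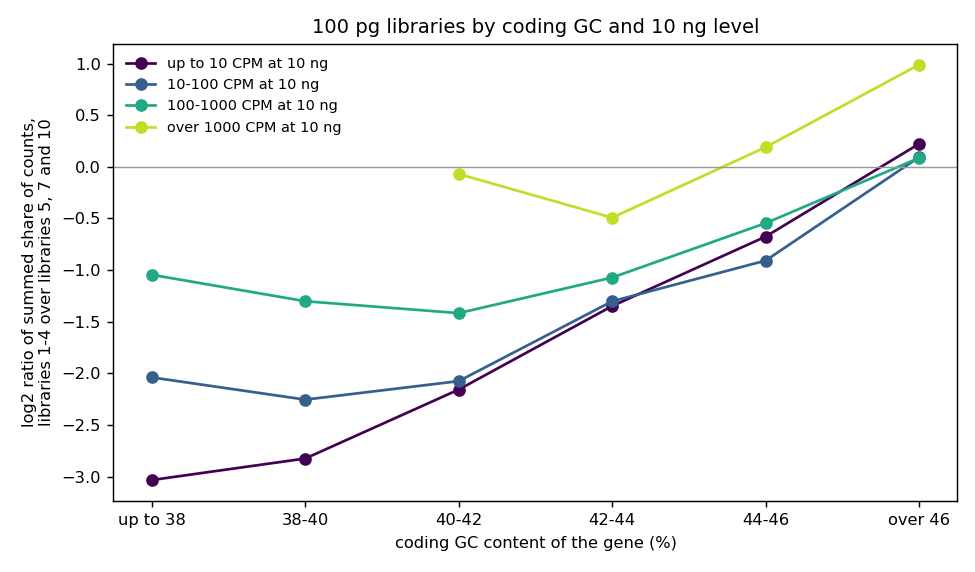
log2 ratio of the summed share of counts, libraries 1 to 4 over libraries 5, 7 and 10, by coding GC content (in %) and by level in the 10 ng libraries, for classes of at least 20 genes. Over 46% GC the lines for genes below 1000 CPM end between 0.09 and 0.22, and the line over 1000 CPM ends at 0.99.

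To show what such GC contents look like, the central 90 coding bases are printed for the 2 of the 12 largest rises with the highest GC content, for TDH3, and for the 3 of the 12 largest falls with the lowest. They were picked by GC content, so the contrast among them is set by that choice. G and C are in capitals (RefSeq, R64 assembly, 5′ to 3′ on the coding strand).
IGD1: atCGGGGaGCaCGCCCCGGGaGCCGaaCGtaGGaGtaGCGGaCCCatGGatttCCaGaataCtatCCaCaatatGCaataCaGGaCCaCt
EDC2: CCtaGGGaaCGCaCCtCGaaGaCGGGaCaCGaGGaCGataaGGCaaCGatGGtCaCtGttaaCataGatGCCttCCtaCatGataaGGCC
TDH3: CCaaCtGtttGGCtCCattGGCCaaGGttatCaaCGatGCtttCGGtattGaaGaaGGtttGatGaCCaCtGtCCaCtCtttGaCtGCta
RTT101: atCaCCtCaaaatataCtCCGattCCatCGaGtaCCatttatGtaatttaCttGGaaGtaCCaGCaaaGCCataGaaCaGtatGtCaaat
RET1: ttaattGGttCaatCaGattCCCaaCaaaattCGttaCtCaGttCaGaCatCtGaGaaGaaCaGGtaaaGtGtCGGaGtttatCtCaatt
VID28: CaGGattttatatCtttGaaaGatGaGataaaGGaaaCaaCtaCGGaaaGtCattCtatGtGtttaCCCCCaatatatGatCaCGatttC
The stretches are those of IGD1 (chrVI:182523-182612, minus strand, 49 of 90 bases G or C), EDC2 (chrV:222813-222902, plus strand, 47 of 90 bases G or C), TDH3 (chrVII:883267-883356, minus strand, 41 of 90 bases G or C), RTT101 (chrX:350800-350889, minus strand, 32 of 90 bases G or C), RET1 (chrXV:731688-731777, minus strand, 32 of 90 bases G or C) and VID28 (chrIX:319538-319627, minus strand, 30 of 90 bases G or C). Over their whole coding sequences, IGD1, EDC2 and TDH3 have 51.5%, 48.9% and 47.0% GC, and RTT101, RET1 and VID28 have 37.0%, 37.2% and 37.6%. Over the whole call, the 78 genes called higher had a median GC content of 46.8% and a median level at 10 ng of 1024 CPM, the 19 genes called lower 39.8% and 8.38 CPM, and all genes tested 40.1% and 9.49 CPM. Of the 78, 63 had more than 44% GC, beside 14.8% of all genes tested, and none had 38% or less. All genes tested are not matched to the 78 in abundance. By level at 10 ng, median GC content rose from 38.6% at up to 1 CPM to 43.0% at 1000 to 10000 CPM. Of the 19, none had more than 44% GC and 4 (21.1%) had 38% or less, beside 22.8% of all genes tested, so the genes called lower were close to all genes tested in GC content.

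Of the 12 named rises, those outside the TDH and ENO genes were of low to middle abundance. Of the 78 genes called higher, 25 had CPM ranges that did not overlap between the sets, beside 38 (0.837%) of all genes tested. ADH2, the alcohol dehydrogenase that uses ethanol and is repressed by glucose, had 396, 300.3, 357 and 225 CPM in libraries 1 to 4, against 26.0, 74.5 and 134 CPM in libraries 5, 7 and 10. Its fold change was the largest of the 12 named rises (log2 3.63 ± 0.58 SE, adjusted p = 0.00177, edgeR), and it shares long stretches with ADH1, so its counts are uncertain. DIG1, an inhibitor of the mating transcription factor Ste12, had 505, 372, 487 and 356 CPM in libraries 1 to 4, against 36.5, 157 and 216 CPM in libraries 5, 7 and 10. DIG1 kept an adjusted p below 0.05 without each library in turn, at log2 values of 2.90 to 3.73.

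IGD1, an inhibitor of the glycogen debranching enzyme, had 1103, 1142, 1012 and 1226 CPM in libraries 1 to 4, against 506, 387 and 852 CPM in libraries 5, 7 and 10. Its log2 fold change was 2.44 ± 0.40 (SE, adjusted p = 0.00182, edgeR). EDC2, an activator of mRNA decapping, had 94.9, 84.9, 111 and 85.3 CPM in libraries 1 to 4, against 8.50, 29.2 and 47.2 CPM in libraries 5, 7 and 10. Ranges apart between the sets were a condition for naming both genes, as for all 12 rises, and are no separate result. SIS2, a regulator of a protein phosphatase, IRC15, a microtubule-associated protein, and FUB1, a proteasome-associated protein, completed the 12 and had library 5 as their lowest library. IGD1 was not called on gene totals (adjusted p = 0.0584, edgeR), nor were EDC2, SIS2, IRC15 and FUB1 (adjusted p of 0.105 to 0.125), while ADH2 and DIG1 were (0.0296 and 0.0455). Of the 78 genes, 47, 31, 60 and 74 were still called without library 1, 2, 3 or 4, and 78, 28 and 60 without library 5, 7 or 10. EDC2 was not called without library 1, 2, 3, 4 or 7, nor SIS2 without library 1, 2, 3, 7 or 10. IRC15 overlaps CTF19 in the annotation, and because the kit keeps no strand information their reads cannot be told apart where they overlap.

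The falls were genes of low abundance whose counts came largely from library 5. The 12 named falls had 0 to 20.6 CPM in libraries 1 to 4, against 212 to 1327 CPM in library 5 and 14.6 to 230 CPM in libraries 7 and 10. In 17 of the 19 genes called lower, library 5 was over 2 times the higher of libraries 7 and 10. The same held for 631 of the 4542 genes tested and for 340 of the 929 called lower on gene totals. MKC7, an aspartyl protease of the cell surface, had 1.23, 5.39, 4.85 and 0 CPM in libraries 1 to 4, against 964, 65.9 and 82.5 CPM in libraries 5, 7 and 10. PRM1, a membrane protein of cell fusion in mating, had no count in any of libraries 1 to 4, against 631, 27.0 and 14.6 CPM in libraries 5, 7 and 10. Set against a floor of 3 counts over the 4 libraries, PRM1 was at least 253-fold lower in libraries 1 to 4 and at least 23.5-fold lower without library 5. PRM1, MKC7, SEN2 and SET4 had under 5 counts in each of libraries 1 to 4, so they passed the filter through libraries 5, 7 and 10 alone. All 12 falls were named for CPM ranges that lie apart and for at least 5 counts in each of libraries 5, 7 and 10. The folds, the calls and the low CPM of the falls are therefore partly set by the filter and by how these genes were picked.

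LEO1, a subunit of the Paf1 complex that travels with RNA polymerase II, was spread more evenly, with 0, 8.08, 3.64 and 2.98 CPM in libraries 1 to 4 and 293, 162 and 129 CPM in libraries 5, 7 and 10. SEN2, a subunit of the tRNA splicing endonuclease, had 2.46, 1.35, 1.21 and 1.98 CPM in libraries 1 to 4 and 212, 63.2 and 81.8 CPM in libraries 5, 7 and 10. RET1, the second-largest subunit of RNA polymerase III, had 11.1, 1.35, 20.6 and 10.9 CPM in libraries 1 to 4 and 1327, 153 and 55.5 CPM in libraries 5, 7 and 10. These are counts of 0 to 17 in libraries 1 to 4. Of the 19 genes, 1, 0, 1 and 2 were still called after TMM without library 1, 2, 3 or 4, and 2, 6 and 17 without library 5, 7 or 10. On gene totals all 19 were called without library 5. In that comparison 2388 of all 4389 genes tested were called lower, and the median gene lay at -2.35. In total 1572 genes (34.6% of those tested) had CPM ranges that were lower in libraries 1 to 4 without overlap, so lying apart in this direction was common and is not particular to the 19.

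**Figure D4:**
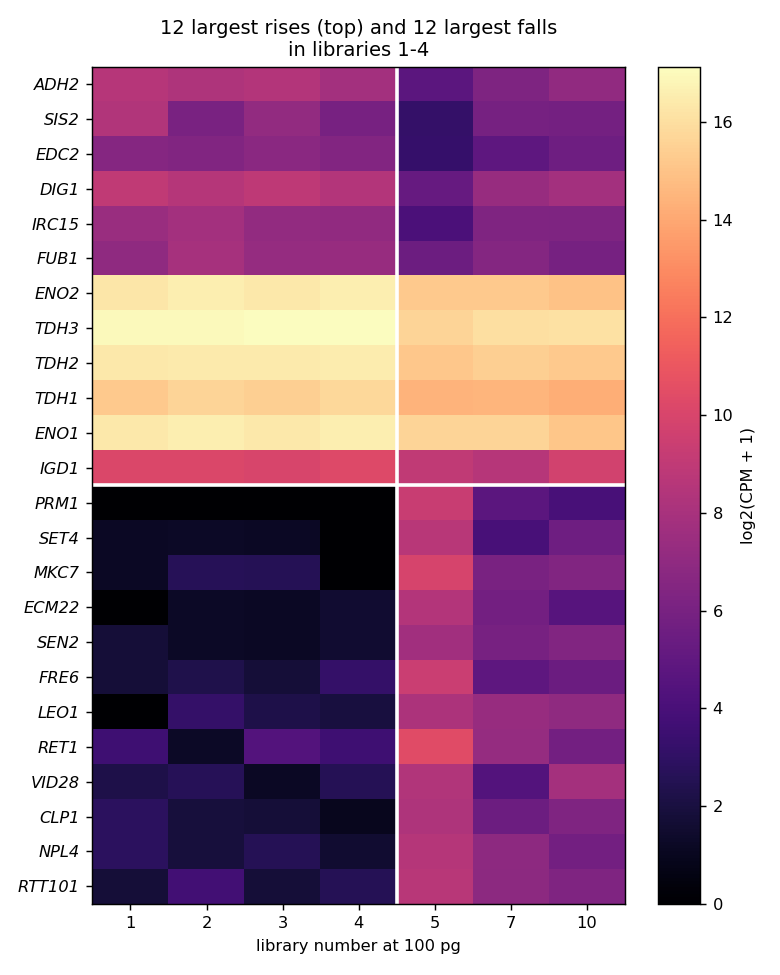
log2(CPM + 1) of the 12 largest rises (top) and the 12 largest falls (bottom) in libraries 1 to 4, by library. The falls are lower in libraries 1 to 4, at 0 to 20.6 CPM before the log, than in the other libraries and highest in library 5, and ADH2, SIS2, EDC2, DIG1, IRC15 and FUB1 are lowest in library 5. Genes were picked for ranges that lie apart between the sets.

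Gene groups of middle and low abundance took smaller shares of the counts in libraries 1 to 4. The lists are described by their share over all members in the files and by the calls among members tested, beside the 0.264% of all genes called higher and the 20.5% called lower on gene totals. The 20 aminoacyl-tRNA synthetases took 0.324%, 0.409%, 0.288% and 0.299% of the counts in libraries 1 to 4, against 1.18%, 0.903% and 0.643% in libraries 5, 7 and 10. Of 19 tested, 9 were called lower and none higher on gene totals. GUS1, the glutamyl-tRNA synthetase, had 450, 648, 522 and 601 CPM in libraries 1 to 4, against 3390, 2011 and 1064 CPM in libraries 5, 7 and 10. The 34 proteasome genes took 0.306% to 0.330% in libraries 1 to 4 and 0.659% to 1.10% in libraries 5, 7 and 10, with 12 called lower. PUP2, a subunit of the proteasome core, averaged 171 ± 51.6 CPM in libraries 1 to 4 and 634 ± 125 CPM in libraries 5, 7 and 10 (SD, n = 4 and 3).

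Fatty acid and sterol synthesis took 0.871% to 1.04% in libraries 1 to 4 and 1.61% to 2.25% in libraries 5, 7 and 10, with 13 of 29 tested genes called lower on gene totals. Purine synthesis took 0.384% to 0.549% in libraries 1 to 4 and 0.915% to 0.932% in libraries 5, 7 and 10, with 6 of 20 called lower. ADE1, an enzyme of that pathway, averaged 308 ± 48.1 CPM in libraries 1 to 4 and 1669 ± 371 CPM in libraries 5, 7 and 10 (SD, n = 4 and 3). The 16 nuclear-encoded genes of the mitochondrial ATP synthase took 0.0379% to 0.0576% in libraries 1 to 4 and 0.181% to 0.204% in libraries 5, 7 and 10, with 4 of 12 tested called lower, and ATP5 averaged 129 ± 40.1 CPM in libraries 1 to 4 and 691 ± 46.7 CPM in libraries 5, 7 and 10. None of GUS1, PUP2, ADE1 and ATP5 was called after TMM, where their log2 fold changes relative to the median gene ran from -0.23 (ADE1) to 0.32 (PUP2).

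The pathways closest to the treatment did not move as 1 block. Sulfur amino acid synthesis and sulfate uptake took 5.29% to 6.71% in libraries 1 to 4 and 4.50% to 5.11% in libraries 5, 7 and 10. On gene totals 2 of its 32 tested genes were called higher, MET17 and SAM1 (S-adenosylmethionine synthetase), and 11 were called lower. The synthesis of other amino acids took 4.34% to 4.57% in libraries 1 to 4 and 5.84% to 6.16% in libraries 5, 7 and 10, with 22 of 66 tested genes called lower and none higher. Ribosomal proteins of the large subunit took 1.13% to 1.55% in libraries 1 to 4 and 1.21% to 2.89% in libraries 5, 7 and 10, and these ranges overlapped. Of the lists with a tested member, 4 had a median below that of all genes tested after TMM, namely sporulation and meiosis (-1.87, 3 genes tested), RNA polymerase II and mediator (-0.84), mitochondrial ribosomal proteins (-0.61) and ribosome biogenesis (-0.41). On gene totals 0 of 3, 3 of 28, 11 of 48 and 8 of 52 of their members were called lower, shares near or below the 20.5% of all genes. Cell wall genes overlapped between the sets, with 3.69% to 4.55% in libraries 1 to 4 and 3.94% to 4.65% in libraries 5, 7 and 10.

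The spike-in RNAs, which were the same in all 7 reactions, showed no call between the sets in edgeR. Of 60 spike-ins tested with edgeR after scaling to the spike-in total, none was called, and 7 had an unadjusted p under 0.05 (lowest adjusted p = 0.0523). DESeq2 called 1 of the 60. The most abundant, ERCC-00096, took 28.3%, 29.8%, 30.9% and 26.6% of the spike-in counts in libraries 1 to 4, against 30.0%, 27.4% and 26.0% in libraries 5, 7 and 10. ERCC-00130 took 19.4% to 20.3% in libraries 1 to 4 and 19.4% to 20.8% in libraries 5, 7 and 10. Some less abundant spike-ins parted. ERCC-00009 took 1.38% to 2.19% in libraries 1 to 4 and 2.55% to 3.55% in libraries 5, 7 and 10. ERCC-00136 took 0.863% to 1.11% and 1.52% to 1.98%, in the same order. Of the 60 spike-ins, 17 had a positive log2 fold change (29 of 56 without library 10). The median log2 fold change over the 60 spike-ins was -0.42 (-0.59 without library 5, 0.02 without library 10). Over the genes it was -3.15 on the same scale. The spike-ins were scaled to their own total, which limits how far they can shift together. The gap between these medians is therefore partly set by the scaling and is no test.

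The same split of library numbers was then made at the other RNA inputs, with libraries numbered 1 to 4 against those numbered 5 and above (6 at 5, 10 and 20 pg, 4 at 1 ng and 5 at 10 ng). At 20 pg the sets parted in glycolytic share, GC content and number of detected genes, as at 100 pg, while the spike-in share, apart at 100 pg and 10 pg, overlapped (60.5% ± 8.18 in libraries 1 to 4 and 52.4% ± 5.79 in the others, adjusted p = 0.267, exact permutation test). Unlike at 100 pg, the count-weighted coding length was apart at 20 pg (1311 ± 9.13 and 1441 ± 42.9 bases, adjusted p = 0.0408, exact permutation test). Glycolysis and ethanol formation took 46.1% ± 2.49 in libraries 1 to 4 and 24.5% ± 1.66 in the libraries numbered 5 and above (SD, n = 4 and 6), and the ranges did not overlap (p = 0.00952, two-sided exact permutation test, 0.0408 after adjustment over 30 tests). The count-weighted GC content was 45.1% ± 0.118 and 43.2% ± 0.191 at 20 pg (the same p), and 45.0% ± 0.937 and 42.9% ± 0.272 at 10 pg (the same p), in libraries 1 to 4 and in those numbered 5 and above. At 5 pg, 1 ng and 10 ng the ranges of GC content overlapped (adjusted p = 0.127, 0.39 and 0.331, exact permutation test). At 10 pg the glycolytic share was 41.1% ± 12.8 in libraries 1 to 4 and 20.9% ± 1.71 in the others, with overlapping ranges (adjusted p = 0.0714, exact permutation test), and at 5 pg it overlapped too, at 28.1% ± 4.02 and 22.3% ± 10.5. The spike-in share was apart at 10 pg (65.2% ± 5.00 and 42.6% ± 5.73), as was the number of detected genes (1660 ± 195 and 2540 ± 137, adjusted p = 0.0408 for each, exact permutation test). Both measures overlapped at 5 pg, 1 ng and 10 ng. At 5 pg the overlap in GC content, glycolytic share and spike-in share came from library 5 of that input (44.8%, 43.1% and 68.1%). The other higher-numbered libraries at 5 pg lay below libraries 1 to 4 in each of these measures. This was seen after the fact and was not tested. At 1 ng the glycolytic share was 41.96% ± 5.39 in libraries 1 to 4 and 37.8% ± 3.95 in the others (n = 4 each, adjusted p = 0.39, exact permutation test). At 10 ng it was 40.003% ± 5.47 and 33.8% ± 2.25 (n = 4 and 5, adjusted p = 0.173, exact permutation test). The genes over 44% GC took 29.0% ± 2.69 of the low-abundance counts in libraries 1 to 4 and 10.2% ± 2.08 in the others at 20 pg, but 13.6% ± 2.71 and 12.3% ± 2.23 at 1 ng.

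**Figure D5:**
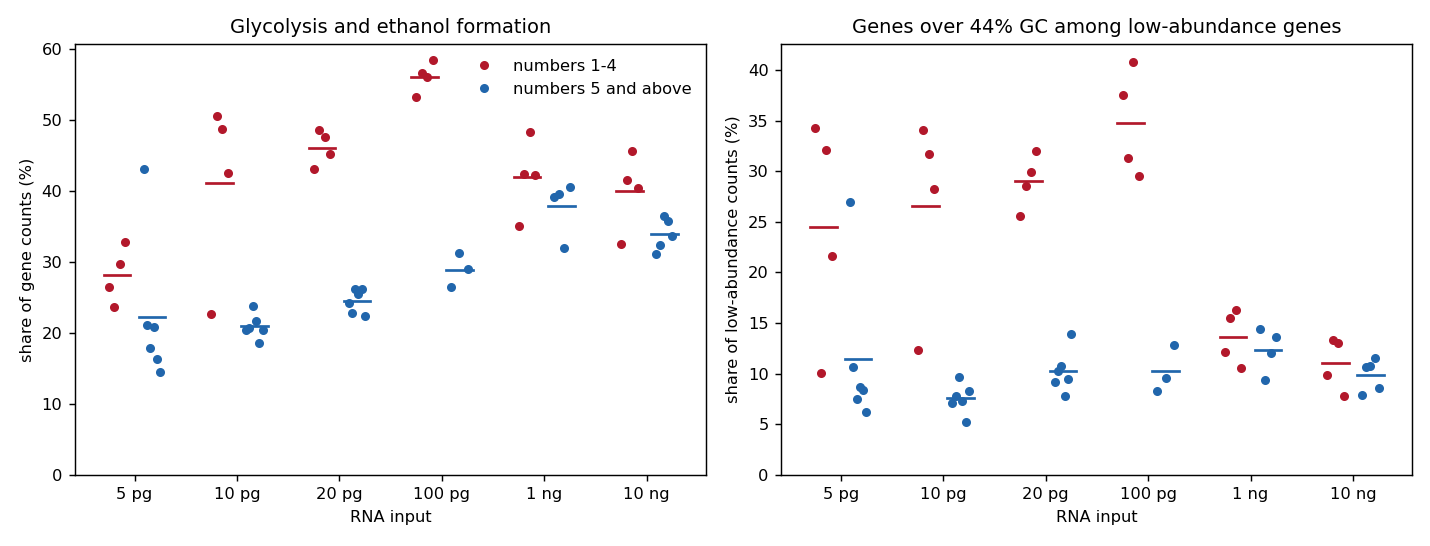
Share of gene counts in glycolysis and ethanol formation (left, in %) and share of the counts in genes of at most 10 CPM at 10 ng that fell in genes over 44% GC (right, in %), by RNA input, each point being 1 library and each bar a set mean. At 20 and 100 pg the 2 sets do not overlap in either plot, and at 1 and 10 ng they do.

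Gene by gene, the edgeR test after TMM called 28, 13 and 50 genes higher and none lower in libraries 1 to 4 at 5, 10 and 20 pg (0.9%, 0.324% and 1.06% of those tested). DESeq2 called 81, 320 and 345 genes at these inputs, and on gene totals edgeR called 13 higher and 0 lower at 5 pg, 7 and 1 at 10 pg, and 12 and 7 at 20 pg. After TMM edgeR called none at 1 ng and 10 ng, where 673 and 256 genes had an unadjusted p under 0.05 and DESeq2 called 1 and 0. Of the 78 genes called higher at 100 pg, 35 were called higher at 20 pg, 9 at 10 pg and none at 5 pg. All 78 were tested at each input. At 5 pg, 10 pg, 20 pg, 1 ng and 10 ng, 68, 76, 78, 74 and 77 of them lay above the median gene, beside 50% of all genes. Of the 19 genes lower at 100 pg, 10, 14, 17, 18 and 14 were tested at 5 pg, 10 pg, 20 pg, 1 ng and 10 ng. None of those was called, and 5, 6, 13, 17 and 10 had the same sign relative to the median gene. TDH3 averaged 121360 ± 7226 CPM in libraries 1 to 4 and 55518 ± 7402 CPM in the others at 20 pg (SD, n = 4 and 6), and 87663 ± 13671 and 78420 ± 9916 CPM at 1 ng (SD, n = 4 each). A test of whether the set contrast differed between 100 pg and 20 pg called none of 4546 genes (edgeR, 212 at an unadjusted p under 0.05, lowest adjusted p of 1.0). Between 100 pg and 1 ng it called 13 of 4670 (0.278%), all with a greater contrast at 100 pg (5 with DESeq2 size factors), and TDH1, TDH2, TDH3, ENO1, ENO2, ADH1 and ADH2 were among them. For TDH3 the contrast was greater at 100 pg by 2.09 ± 0.39 on the log2 scale (SE, adjusted p = 0.0228, edgeR). The higher-numbered set at 1 ng was mixed in its Spearman correlation with the mean 10 ng profile. Libraries 5 and 9 were at 0.684 and 0.566, and libraries 7 and 10 at 0.887 and 0.909. Libraries 1 to 4 at 1 ng were at 0.894 to 0.908. The contrast at 1 ng averages over this mixture, and its part in the 13 calls was not tested.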

How the data were processed

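RNA sequencing counts of 59 yeast libraries were deposited, 1 file per library, and the 54 with a known RNA input were grouped by input and library number. The labels of 5 libraries give no input, and these were not used. The authors aligned reads to the R64 genome with STAR 2.5.2 without trimming, kept uniquely mapped reads and deposited the raw counts of genes and spike-ins, with HTSeq and RSEM 1.2.31 also named in the submitters' processing notes. Because PCR copies are counted, precision refers to counting only. Of 6420 gene rows, 6061 were matched to R64, and lengths and GC contents are those of coding sequences. The 92 spike-in rows and the 5 summary rows were left out of gene totals. In the 7 libraries at 100 pg, alignments that were not unique took 5.20% to 7.17% of counts, and reads outside genes 0.283% to 0.929%.

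A gene was tested if 20% or more of the 7 libraries had 5 counts or more for it. The test was that of edgeR 4.0.16 (quasi-likelihood, TMM, Benjamini-Hochberg, adjusted p of 0.05, two-sided). The SE is the size of the log2 fold change over the root of its F statistic, and a value relative to the median gene subtracts the median over all genes tested. Library measures were compared by two-sided exact permutation tests, adjusted over 6 measures at 100 pg and over 30 tests at the other inputs. DESeq2 1.42.0 and limma 3.58.1 (voom), other scalings, filters, thinning (20 draws) and leaving out libraries served as alternatives. The test was tried on simulated data first. Replicates were not duplicates of each other: the chi-square of their counts was 21.2 to 143 per degree of freedom.

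Named genes were the 12 largest rises and falls among genes called with CPM ranges apart, a log2 fold change of 1 or more in size relative to the median gene, a mean log2 CPM of 5 or more and at least 5 counts in every library of the higher set, with the 10 most abundant genes, the 4 most abundant members of each of 32 gene lists and list members called. The compared libraries and the gene lists were chosen with earlier results of these data known. Scripts ran in R 4.3.3 and in Python 3.11.15, with matplotlib 3.10.9 for plots, scipy 1.17.1 for tests and pandas 2.3.3 with numpy 2.4.6 for tables.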

Additional observations from a re-analysis of the deposited data

Results flagged for a closer look

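One of 39 groups of 4 values examined in libraries 1 to 4 had a value far from the other 3, a rate that chance alone gives in about 1 of 20 groups. SET4 had no count in library 4 and 1.21 to 1.35 CPM in libraries 1 to 3, where each value is 1 count (gap over range 0.9).

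The set contrast differed between 100 pg and 1 ng for 13 genes, by the interaction test of edgeR at an adjusted p of 0.05, and in each it was greater at 100 pg. With DESeq2 size factors 5 genes were called. The log2 differences were 2.09 for TDH3, 2.14 for TDH2, 2.11 for TDH1, 1.90 for ENO1, 2.09 for ENO2, 1.87 for ADH1 and 3.09 for ADH2. They were 2.32 for BDH2, 5.41 for YAT1, 3.31 for RRD1, 4.04 for RSM7, 2.99 for DSC2 and 3.78 for DIG1. Reads shared by the close copies TDH1, TDH2 and TDH3, ENO1 and ENO2, and ADH1 and ADH2 make the division among copies uncertain.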

How the results depend on the processing

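The count of 97 genes called at 100 pg depended on the scale. It was 941 on gene totals, 2540 on spike-in totals, 405 with DESeq2, 245 without a filter, 843 with the number of detected genes as a covariate, 167 after thinning and 0 when all 54 libraries shared the spread (164 at an unadjusted p under 0.05). The covariate does not overlap between the sets. A filter of at least 5 counts in 4 libraries left 2902 genes, with 65 called higher and 8 lower. Genes that reach 5 counts only in libraries 5, 7 and 10 cannot pass it. Of the 19 genes called lower in the main test, 7 were called lower there, and the median gene lay at -0.33. With libraries 7 and 10 alone as the higher-numbered set, chosen after seeing the data, it was 2419 on gene totals and 3360 on spike-in totals. The share of calls that were higher was 80.4% after TMM, 1.28% on gene totals, 0% on spike-in totals, 51.4% with DESeq2, 56.7% without a filter, 45.2% with the covariate and 98.6% with limma-voom. Leaving out 1 library gave 31 to 319 calls: 48 without library 1, 31 without library 2, 319 without library 5 and 36 without library 7.

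The spike-in RNAs called ranged from 0 to 1 without 1 library, with 1 called by DESeq2. The interaction with 1 ng called 5 genes with DESeq2 size factors. On gene totals, an added alternative, 13, 8 and 19 genes were called at 5, 10 and 20 pg, of which 0, 1 and 7 were lower. The difference in spike-in share was 22.8 points outside the glycolysis list, that in GC content 1.38 points, and that in the share of low-abundance genes -2.62 points (in place of -5.33) when the class was set at 1 ng. The difference in correlation with the 10 ng profile, 0.0215, ranged from -0.0578 (without library 5) to 0.0866. Leaving out 1 library gave -2195 to -1356 detected genes, 13.7 to 17.3 points of spike-in share, -258 to -79.2 bases of coding length and 1.68 to 1.94 points of GC content.

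On spike-in totals the log2 fold changes of genes with a positive value after TMM became -0.41 for GPM1, -0.37 for MET17, -0.41 for SED1, -0.62 for PDC1, -0.57 for FBA1, -0.10 for ADH1, -0.45 for CDC19, -0.27 for SAM1, -0.11 for SAM2, -0.34 for SSA1, -0.17 for GDH3 and -0.15 for RET2. On gene totals and spike-in totals they were -0.16 and -1.08 for ACT1, -0.068 and -0.97 for LYS9, -0.010 and -0.91 for TEF1, -0.15 and -1.05 for RPL3, -1.17 and -2.15 for HSP42, and -1.06 and -1.98 for ERG3. Leaving out 1 library, GUS1 ran from -0.98 to 0.22 (without library 5). The cause was not tested. No paired analysis was possible because the 2 sets share no library number. Depth limits the 12 named falls, which rest on at most 17 counts in any of libraries 1 to 4.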
